A study of Mus musculus with 192 samples.

Results

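The response of mouse bone marrow-derived dendritic cells to 3',3'-cGAMP given alone was read from 6 RNA sequencing libraries, 3 named cGAMP and 3 named Ctrl, chosen by those names. They are 2 of the 64 groups, each of 3 libraries, that make up the series: Ctrl, 7 groups with 1 ligand of a pattern recognition receptor, 21 with a pair and 35 with a triplet. Cells of all groups were grown with GM-CSF at 15 ng/mL from the bone marrow of female C57BL/6J mice of 6 to 8 weeks, plated at 100000 per well and lysed after 6 h. Further groups that serve as comparisons are HMW, HMW + cGAMP, SeV and LPS (lipopolysaccharide), named as in the labels. Doses, and what the Ctrl wells received, are not given in the sources used here. Whether replicates were separate cultures or animals is not stated either. P-values measure the spread between libraries of the same group, estimated over all 64 groups of the series, which may be technical.

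3',3'-cGAMP is a cyclic dinucleotide of the kind that bacteria make. It binds STING, a membrane protein of the endoplasmic reticulum that also receives the related dinucleotide made by the DNA sensor cGAS in animal cells. Activated STING recruits the kinase TBK1, which phosphorylates the transcription factor IRF3, and IRF3 switches on interferon beta and other early genes, while NF-kB is activated in parallel. Secreted interferon then acts through its receptor, the kinases JAK1 and TYK2 and a transcription factor complex that holds STAT2 and IRF9 and binds the interferon-stimulated response element (ISRE) of many antiviral genes.

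Libraries were shallow. Ctrl libraries held 61823, 68941 and 89530 unique molecular identifier (UMI) counts and cGAMP libraries 107471, 167311 and 159042, within a range of 46564 to 610234 over the series. Levels are given below as CPM (counts scaled to a common total after TMM scaling) and compare libraries, not genes. Over the libraries of each group, the summed level of the 7 dendritic cell markers ran from 3530 to 3670 CPM in Ctrl and from 3580 to 3890 CPM in cGAMP, although the defining markers Flt3 and Zbtb46 had at most 2 counts in a group. Within that sum Itgax (-0.96, adjusted p = 0.00133 by edgeR) and Csf2ra (-0.41, 0.0425) fell on the log2 scale and the maturation gene Cd86 rose (3.49, 3.05e-13), so the sum does not show that its members were level. The fall of Csf2ra missed the threshold in 6 of 13 alternative settings of the fit. The 8 macrophage markers summed to between 2130 and 2200 CPM and between 2240 and 2340 CPM, with 1 that rose (Fcgr1) and 2 that fell among the 7 tested, and the neutrophil markers to between 528 and 845 CPM and between 534 and 801 CPM. Plasmacytoid dendritic cell markers summed to between 41.6 and 62.4 CPM in Ctrl and between 146 and 178 CPM with cGAMP; of these only Tcf4 had counts enough to be tested, and the defining marker Siglech had 2 counts in Ctrl and 0 in cGAMP. Markers of T, B, NK, mast and erythroid cells were at or near 0. In such bulk samples, fewer cells of a type and less RNA per cell cannot be told apart.

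Of 4720 genes tested, 551 were called higher with cGAMP and 279 lower, at an adjusted p under 0.05 (quasi-likelihood F test of edgeR, adjusted after Benjamini and Hochberg) and a change of at least 2-fold. These are 11.7% and 5.91% of the genes tested. Without the fold threshold, 638 genes (13.5%) rose and 385 (8.16%) fell, together 21.7%, and it is this test that "rose", "fell" and "passed" refer to. The shares of 13.5% and 8.16% are therefore the background for the counts of list members against Ctrl that follow. Over all genes tested the log2 fold change had a median of -0.09. Of the calls 66.4% were higher, a share that was 56.9% with RLE size factors, which shift the median by -0.12, and 48.3% with library size alone, which shifts it by -0.24. Non-overlapping values of 3 against 3 libraries were found for 1701 genes, 36% of those tested.

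**Figure D1:**
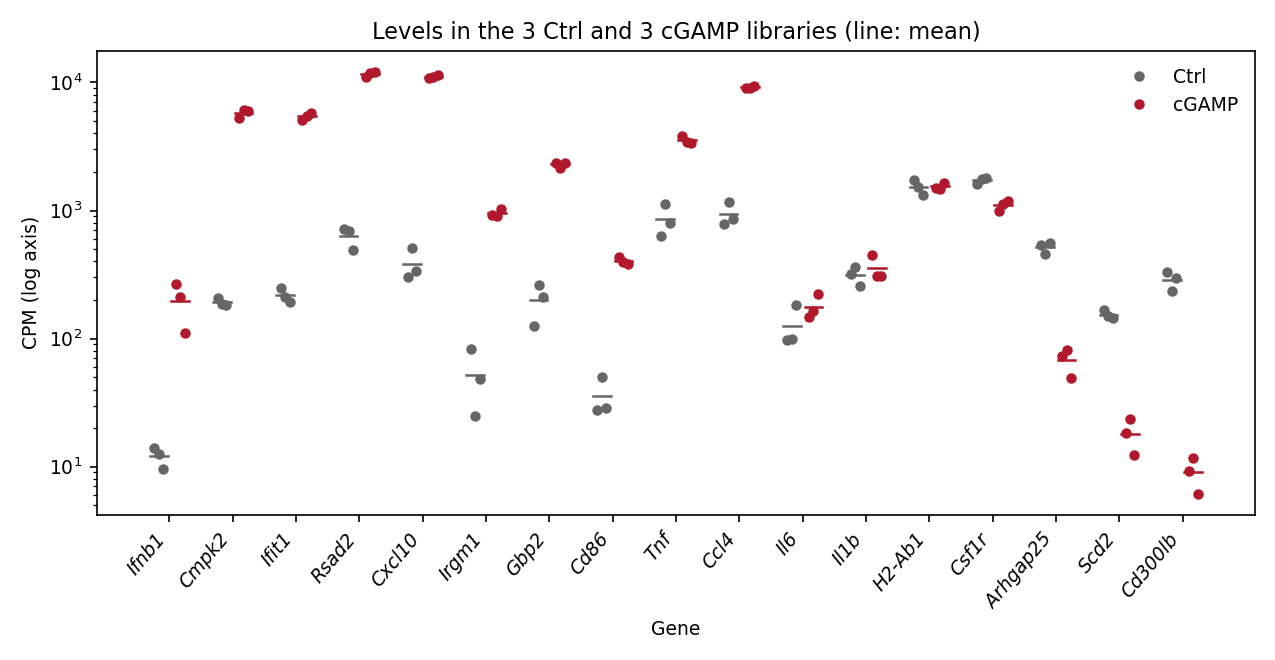
Level of 17 genes in each of the 3 Ctrl libraries (grey) and 3 cGAMP libraries (red), in CPM on a log axis, with a line at the mean of each group. Interferon beta, antiviral and chemokine genes separate upward, Il6 and Il1b overlap, and Cd300lb sits at 237 CPM or more in Ctrl and at 11.7 CPM or less with cGAMP.

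Among the genes that make and relay the cGAMP signal, those of 2 nucleic acid enzymes and of the IFI35 and NMI proteins rose, while the gene of STING did not pass. Of 15 tested members of a list of STING pathway genes, 6 rose and 1 fell, with a median log2 fold change of 0.77. These are 40% and 6.67%, against 13.5% and 8.16% of all genes. Tmem173, which encodes STING itself, was at 41.6, 24.9 and 19.2 CPM in Ctrl and 64.2, 58.4 and 73.7 CPM with cGAMP. Its libraries do not overlap between groups, but the difference did not pass (log2 fold change 1.24 ± 0.65, the SE, with an adjusted p of 0.173 in edgeR). Trex1, the exonuclease that degrades cytosolic DNA, rose from 97, 24.9 and 106 CPM to 367, 520 and 559 CPM (2.65 ± 0.31, adjusted p = 4.95e-14). Samhd1, which breaks down deoxynucleotides, rose from 374, 449 and 557 CPM to 2080, 2290 and 2150 CPM (2.21 ± 0.18, 2.19e-24). Ifi35 and Nmi, whose proteins form a complex, rose by log2 fold changes of 2.80 ± 0.32 and 2.82 ± 0.49.

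Mb21d1, the gene of the sensor cGAS, had 3 counts in Ctrl and 26 with cGAMP, or 5.02 times as many at equal depth (interval from counting error 1.54 to 25.9, adjusted p = 0.0119 by edgeR). Tbk1 rose from 111, 74.8 and 154 CPM to 202, 169 and 276 CPM (0.89 ± 0.29, 0.0154). Dtx4, a ubiquitin ligase reported to target TBK1, fell from 139, 112 and 96 CPM to 64.2, 29.2 and 30.7 CPM (-1.54 ± 0.47, 0.00901). All 3 passed narrowly. Mb21d1 no longer passed without cGAMP replicate 2 (adjusted p = 0.105) or Ctrl replicate 3 (0.165), with DESeq2 (0.0715) and after thinning all libraries to equal totals (0.21). Tbk1 did not pass without cGAMP replicate 3 (0.169) or Ctrl replicate 2 (0.11), with library size alone (0.0916), with DESeq2 (0.0779) and after thinning (0.0859). For Dtx4 the same held without cGAMP replicate 2 (0.0572) or Ctrl replicate 1 (0.0578), without the filter on low counts (0.0623) and after thinning (0.304). Irf3 was at 67.6 ± 23.3 CPM in Ctrl and 38.5 ± 30.4 CPM with cGAMP (SD, n = 3), with overlapping libraries and an adjusted p of 0.169, and Ikbke, the other kinase of IRF3, at 225 ± 40.8 and 267 ± 22.1 CPM (0.536). Ddx41, Rnf5, Zdhhc3, Surf4 and Sec24c did not pass, and 8 further members had too few counts to be tested.

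Interferon beta was induced, and the genes that transmit or restrain interferon signals changed unevenly. Ifnb1 was at 13.9, 12.5 and 9.6 CPM in Ctrl, which is 1 count in each library, and at 266, 210 and 110 CPM with cGAMP. The 83 counts against 3 are a depth-scaled ratio of 16, whose interval from counting error runs from 5.29 to 79.2 (adjusted p = 5.73e-08 by edgeR). The 4 interferon alpha genes listed (Ifna1, Ifna2, Ifna4 and Ifna5) had 0 counts in all 6 libraries, under a detection floor of 3 counts per group. Of 16 tested members of the interferon list, 9 rose and 1 fell (median 1.09), or 56.2% and 6.25%, against 13.5% and 8.16% of all genes. Stat2 rose from 139, 87.3 and 28.8 CPM to 578, 508 and 559 CPM (2.79 ± 0.28, adjusted p = 3.07e-17 by edgeR). Genes that restrain the signal also rose. Usp18, which displaces JAK1 from the interferon receptor, rose from 83.1, 99.8 and 106 CPM to 807, 912 and 681 CPM (3.03 ± 0.26, 2.77e-22). Socs1, an inhibitor of JAK kinases, rose from 13.9, 0 and 28.8 CPM to 220, 234 and 264 CPM (3.89 ± 0.49, 4.88e-12).

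Jak2 rose from 41.6, 112 and 115 CPM to 202, 216 and 276 CPM (1.32 ± 0.30, adjusted p = 0.000184 by edgeR). Ifngr1, the ligand-binding chain of the receptor for interferon gamma, fell from 83.1, 212 and 76.8 CPM to 18.3, 23.4 and 6.14 CPM (-2.89 ± 0.61, 5.4e-05). Every Ctrl library was above every cGAMP library for this gene, which its place among the 12 largest falls required. The receptor chains Ifnar1, Ifnar2 and Ifngr2 had log2 fold changes of -0.42 (adjusted p = 0.379), -0.12 (0.852) and -0.68 (0.19) and did not pass, nor did Tyk2, Socs3 and Ptpn1, at 0.74 (0.231), 0.57 (0.394) and -0.37 (0.275). Jak1, Irf9 and the phosphatase gene Ptpn2 passed narrowly, with log2 fold changes of 1.08 ± 0.39 (0.0326), 1.11 ± 0.40 (0.0295) and 1.59 ± 0.54 (0.0196). Each of the 3 missed the threshold without some single libraries. Jak1 did not pass without cGAMP replicate 3 (0.17), Ctrl replicate 2 (0.151) or Ctrl replicate 3 (0.0839), Irf9 not without cGAMP replicate 2 (0.0867), Ctrl replicate 2 (0.0608) or Ctrl replicate 3 (0.123), and Ptpn2 not without cGAMP replicate 3 (0.126), Ctrl replicate 1 (0.134) or Ctrl replicate 2 (0.0555). Library size alone, DESeq2 and thinning left all 3 short of the threshold as well (0.104, 0.0999 and 0.1 for Jak1, 0.1, 0.0902 and 0.709 for Irf9, 0.0513, 0.0718 and 0.167 for Ptpn2), and with RLE factors Jak1 (0.062) and Irf9 (0.0579) did not pass.

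Antiviral effector genes rose almost without exception. Of 46 tested, 43 rose (93.5%, against 13.5% of all genes) and the other 3 did not pass, with a median log2 fold change of 3.02, or 2.97 with Oas1g, absent from Ctrl, at its lower bound. Cmpk2, a mitochondrial nucleotide kinase next to Rsad2 in the genome, rose from 208, 187 and 182 CPM to 5300, 6100 and 5940 CPM (4.91 ± 0.23, adjusted p = 4.63e-53 by edgeR). Rsad2, which encodes viperin, an enzyme that makes a chain-terminating nucleotide, rose from 720, 698 and 490 CPM to 11100, 11800 and 12100 CPM (4.22 ± 0.19, 2.28e-53). Oasl1 rose from 55.4, 87.3 and 115 CPM to 3050, 2570 and 2650 CPM (4.93 ± 0.31, 3.79e-35). Every cGAMP library lay above every Ctrl library for these 3 genes, as the rule for naming them required.

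The Ifit genes, whose proteins bind foreign RNA ends, rose as a family. Ifit1 rose from 218 ± 29.1 CPM (SD, n = 3) to 5070, 5440 and 5820 CPM (4.66 ± 0.20), Ifit2 from 139, 200 and 163 CPM to 3270, 3720 and 3190 CPM (4.33 ± 0.25, adjusted p = 4.74e-39 by edgeR), and Ifit3 from 111, 187 and 106 CPM to 3800, 3640 and 3160 CPM (4.72 ± 0.28, 6.32e-39). Among genes that met the conditions for naming, with at least 4 counts in each group, the largest fold change belonged to Gm14446 (now named Ifit1bl1). This member of the same family had only 4 counts in Ctrl, at 13.9, 12.5 and 19.2 CPM, and was at 807, 976 and 878 CPM with cGAMP (5.77 ± 0.59, 5.4e-17). Its relative I830012O16Rik had 3 counts against 262, a ratio of 50.6 (17.1 to 247). How reads shared by near-identical genes were counted is not given in the sources used here, so values within the Ifit, Oas, Gbp, Irg, Ifi200, Slfn and Phf11 families are uncertain in how they divide among relatives. Mx1, a dynamin-like GTPase, rose from 429, 499 and 250 CPM to 5460, 4980 and 4640 CPM (3.71 ± 0.17, 4.86e-53), and Isg15, the ubiquitin-like modifier, from 139, 225 and 182 CPM to 1480, 1360 and 1220 CPM (2.87 ± 0.22, 2.39e-26). Oas2, which makes oligoadenylates on binding double-stranded RNA, had 2 counts in Ctrl and 109 with cGAMP, a ratio of 31.6 (8.53 to 264). Oas1g, with 0 counts in Ctrl, was at least 4.63-fold higher with cGAMP, but did not pass after thinning (adjusted p = 0.0936). Ifitm2 (79.7 ± 15.5 and 60.6 ± 37.9 CPM) did not pass.

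The promoters of the strongly raised genes were read from the RefSeq promoter table (GRCm38.p6, 250 bases before to 50 bases after the start of transcription) and searched on both strands for a core of the ISRE: GAAA, 2 bases of any kind, and GAAA again. Genes looked up that gave no match before the start include Ifit2, Cmpk2, Oasl1, Mx1, Irf7, Ifnb1, Oasl2 and Ifih1. Irgm1 held matches that are not shown. The stretches below are shown because they hold that core in genes that carry the response described here, so they do not stand for all such genes. Each runs 5′ to 3′ on the gene's strand, and capitals mark the matches, which read TTTC, 2 bases and TTTC where the core lies on the other strand. They lie at chr19:34640784-34640833 (Ifit1, plus strand), chr19:34583387-34583436 (Ifit3, plus), chr12:26456543-26456592 (Rsad2, minus), chr5:92349073-92349122 (Cxcl10, minus), chr4:156200855-156200904 (Isg15, minus) and chr11:58199502-58199551 (Igtp, plus). The first base of the match, the last marked one in Ifit1 and Isg15, is 85, 122, 120, 213, 66 and 34 bases before the start, in the same order.
Ifit1: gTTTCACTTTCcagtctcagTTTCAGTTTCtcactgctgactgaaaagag
Ifit3: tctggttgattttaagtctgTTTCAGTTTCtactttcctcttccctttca
Rsad2: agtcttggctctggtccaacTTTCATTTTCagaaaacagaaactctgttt
Cxcl10: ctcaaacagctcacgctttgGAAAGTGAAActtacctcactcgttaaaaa
Isg15: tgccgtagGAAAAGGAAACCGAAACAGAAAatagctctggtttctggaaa
Igtp: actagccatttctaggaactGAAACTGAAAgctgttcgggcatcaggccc

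The core was present in 13.3% of the 578 promoters of genes called higher (443 genes matched the table), in 3.07% of the 293 promoters of genes called lower, in 2.93% of those of genes not called, and in 3.44% of all 32851 promoters of the table. Of the 12 named genes with the largest rises, 8 held it (Gm14446, Igtp, Cxcl10, Ifit3, Ifit1, Ifi203, Rsad2 and Irgm1), and Oasl1, Cmpk2, Nt5c3 and Ifit2 held no match in this window. The 11 genes of the largest falls that are in the table held none. Genes called higher with the core had a median log2 fold change of 2.79 (73 genes) and those without it 1.97 (370 genes). A stricter form with 3 copies of GAAA at the same spacing was in 1.73% of promoters of genes called higher and 0.116% of all promoters. A match is a sequence description and shows no binding.

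Genes that detect nucleic acids rose as well: 17 of 21 tested sensors rose and the other 4 did not pass (median 2.78). Ifih1, the gene of the RNA sensor MDA5, rose from 55.4, 99.8 and 115 CPM to 1400, 1700 and 1530 CPM (4.05 ± 0.25, adjusted p = 3.39e-36 by edgeR), and Ddx58, that of RIG-I, from 41.6, 49.9 and 76.8 CPM to 523, 649 and 571 CPM (3.31 ± 0.30, 4.46e-21). Zbp1, the sensor of Z-form nucleic acid, rose from 13.9, 49.9 and 0 CPM to 367, 292 and 301 CPM (3.96 ± 0.45, 4.02e-14). Among the Ifi200 family of DNA-binding proteins, Ifi203 rose from 55.4, 24.9 and 38.4 CPM to 706, 906 and 651 CPM (4.26 ± 0.29, 7.08e-32) and Pyhin1 (now Ifi209) from 97, 87.3 and 67.2 CPM to 1230, 1330 and 1440 CPM (4.02 ± 0.26, 3.79e-35). Tlr3, the endosomal receptor for double-stranded RNA, had 1 count against 43, a ratio of 24.9 (4.24 to 1010). Ddx60 had 0 counts in Ctrl and was at least 7.14-fold higher. Aim2, the DNA sensor of the inflammasome, was at 21.6 ± 14.6 and 63.4 ± 4.60 CPM and did not pass (1.41, 0.0826), nor did Tlr7 (1.25, 0.0691).

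All 13 tested genes of the GBP and IRG families, GTPases that attack the vacuoles of intracellular microbes, rose (median 3.64). Igtp rose from 0, 24.9 and 19.2 CPM to 669, 456 and 632 CPM (5.15 ± 0.42, adjusted p = 1.08e-24 by edgeR), Irgm1 from 83.1, 24.9 and 48 CPM to 926, 900 and 1020 CPM (4.21 ± 0.28, 1.73e-33), and Gbp2 from 125, 262 and 211 CPM to 2370, 2160 and 2340 CPM (3.50 ± 0.18, 2.7e-46). Gbp4 had 3 counts against 137, a ratio of 26.4 (8.86 to 130). The group count was 12 or 13 over all alternatives, and Gbp6 did not pass after thinning (0.0824).

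**Figure D2:**
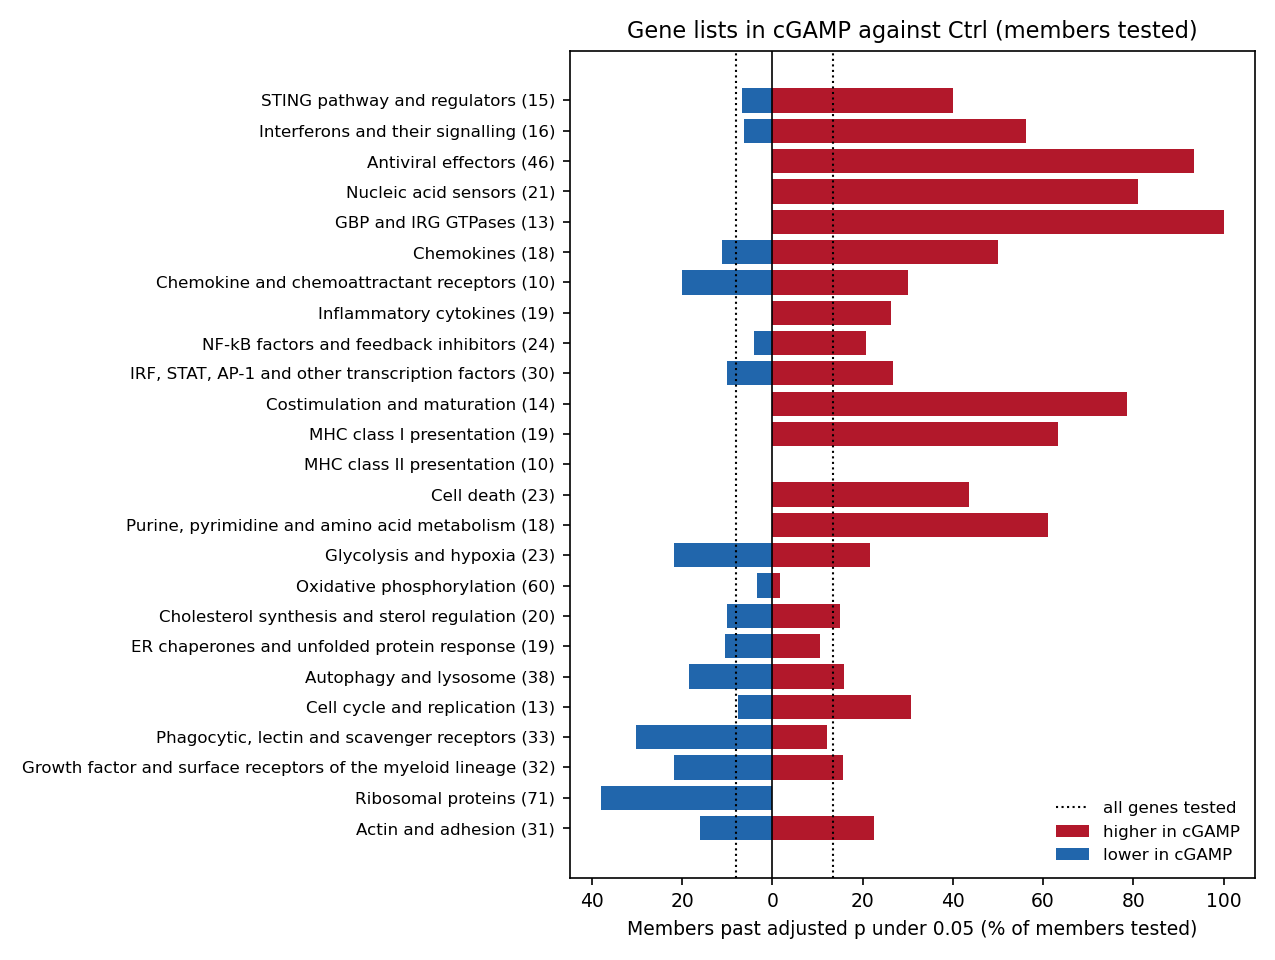
Share of tested members of 25 gene lists that rose (red, to the right) or fell (blue, to the left) in cGAMP against Ctrl, in percent of the members tested, with the number tested in brackets. Dotted lines mark the 13.5% of all genes that rose and the 8.16% that fell. GBP and IRG GTPases and antiviral effectors reach 100% and 93.5%, MHC class II has neither bar, and ribosomal proteins have 38% lower.

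Of 18 tested chemokine genes 9 rose and 2 fell (median 1.58), or 50% and 11.1%, against 13.5% and 8.16% of all genes. Those that rose include attractants of T cells and of monocytes. Cxcl10, a ligand of CXCR3, was at 305, 511 and 336 CPM in Ctrl and 10900, 11000 and 11400 CPM with cGAMP. Cxcl9 and Cxcl11, which share that receptor, had 3 counts each in Ctrl against 212 and 83, ratios of 40.9 (13.8 to 200) and 16 (5.29 to 79.2). Chemokines of the CC class rose too, Ccl4 from 790, 1160 and 864 CPM to 9130, 8980 and 9420 CPM (3.29 ± 0.19, adjusted p = 3.6e-41 by edgeR), Ccl3 from 568, 674 and 509 CPM to 2750, 2540 and 2160 CPM (2.09 ± 0.19, 2.62e-20) and Ccl5 from 2130, 2470 and 2070 CPM to 14100, 12200 and 12900 CPM (2.55 ± 0.16, 7.08e-36). Of the monocyte attractants, Ccl2 rose from 27.7, 24.9 and 28.8 CPM to 339, 304 and 325 CPM (3.52 ± 0.50, 1.25e-09), and Ccl7 and Ccl12, both with 0 counts in Ctrl, were at least 10.8-fold and 10.4-fold higher. These 3 genes are close relatives, with the limit on shared reads given above.

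The neutrophil attractants gave no rise that passed. Cxcl1 was at 57.4 ± 42.6 CPM in Ctrl and 29.1 ± 1.59 CPM with cGAMP (adjusted p = 0.283 by edgeR) and Cxcl2 at 459 ± 77.7 and 490 ± 30.2 CPM (0.842), while Cxcl3 fell from 402, 274 and 336 CPM to 138, 117 and 92.1 CPM (-1.56 ± 0.42, 0.00206). Pf4 (platelet factor) was the other fall (-0.68 ± 0.24, 0.028), and it did not pass without cGAMP replicate 2 (0.208), Ctrl replicate 2 (0.185) or Ctrl replicate 3 (0.0753), without the filter on low counts (0.312) and after thinning (0.115). Receptors for chemoattractants were mixed, with 3 of 10 higher and 2 lower (1 lower after thinning). The shares of 30% and 20% stand against 13.5% and 8.16% of all genes. Ccrl2, an atypical receptor, rose from 97, 112 and 125 CPM to 761, 789 and 853 CPM (2.82 ± 0.27, 4.64e-19). P2ry6, a receptor for uridine nucleotides, fell from 69.3, 112 and 48 CPM to 18.3, 5.84 and 12.3 CPM (-2.64 ± 0.70, 0.00189), and Ccr2, the receptor of Ccl2, from 208, 125 and 182 CPM to 64.2, 40.9 and 61.4 CPM (-1.64 ± 0.45, 0.00313, but 0.0772 after thinning).

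Of 19 inflammatory cytokine genes 5 rose (26.3%, against 13.5% of all genes), with a median of 1.03. Il6, Il1a and Il1b were not among those that rose. Tnf rose from 637, 1130 and 797 CPM to 3800, 3450 and 3360 CPM (2.04 ± 0.19, adjusted p = 1.86e-19 by edgeR). Tnfsf15, a relative of Tnf that costimulates T cells, rose from 55.4, 37.4 and 57.6 CPM to 789, 795 and 945 CPM (4.04 ± 0.42, 6.45e-17). Il15, which sustains NK and memory T cells, rose from 13.9, 37.4 and 38.4 CPM to 202, 251 and 239 CPM (2.88 ± 0.43, 6.34e-09). The other 2 were antagonists: Il1rn, the decoy ligand of the interleukin 1 receptor, rose from 790, 861 and 1060 CPM to 1990, 1970 and 2140 CPM (1.16 ± 0.19, 1.99e-07) and Il18bp, the decoy of interleukin 18, from 69.3, 37.4 and 67.2 CPM to 202, 164 and 117 CPM (1.41 ± 0.42, 0.00647).

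Il6 was at 97, 99.8 and 182 CPM in Ctrl and 147, 164 and 221 CPM with cGAMP, with overlapping libraries (0.45 ± 0.33, adjusted p = 0.354 by edgeR). Il1b was at 319, 362 and 259 CPM against 449, 310 and 307 CPM (0.16 ± 0.22, 0.65). Il1a had a log2 fold change of 0.60 ± 0.27 (0.0943), and Il27 had 1 count against 15, a ratio of 8.68 (1.34 to 366, adjusted p = 0.0511). Il1a passed in 3 of 13 alternatives and Il27 in 5 of 13. The 95% intervals of the log2 fold changes ran from -0.20 to 1.09 for Il6 and from -0.26 to 0.59 for Il1b.

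Of 24 tested genes of NF-kB subunits and their feedback inhibitors, 5 rose, 1 fell and 18 did not pass (median 0.77). Rises were 20.8% and falls 4.17%, against 13.5% and 8.16% of all genes. Nfkbia, the gene of the inhibitor IkB alpha, rose from 332, 474 and 509 CPM to 963, 970 and 786 CPM (1.02 ± 0.16, adjusted p = 1.63e-08 by edgeR), and Tnfaip3, that of the inhibitor A20, from 208, 262 and 221 CPM to 495, 567 and 614 CPM (1.29 ± 0.21, 8.97e-08). Nfkbie (1.46 ± 0.38, 0.00154, but 0.108 after thinning), Zfp36 (0.90 ± 0.23, 0.00102) and Tnfaip2 (0.81 ± 0.16, 1.5e-05) also rose. The fall, Nfkbid, did not pass without any one of the cGAMP libraries (adjusted p of 0.0565, 0.154 and 0.0525 for replicates 1, 2 and 3), without Ctrl replicate 1 (0.258) or 3 (0.225), without the filter on low counts (0.248) and after thinning (0.0887). The subunit genes Nfkb1 (0.37, 0.252), Nfkb2 (-0.26, 0.618), Rela (0.75, 0.0546) and Relb (0.09, 0.891) did not pass, though Rela did in 3 of 13 alternatives.

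The same promoter table was searched on both strands for a core of NF-kB sites: GGG, 2 bases of any kind, and TTTCC. It was in 3.81% of promoters of genes called higher, 2.05% of those called lower and 1.63% of all promoters. Ifnb1, Cxcl10, Tnf, Ccl4 and Ccl5, which rose, were also looked up and gave no match before the start. Stretches with the core are shown for the 2 inhibitors that rose and for Il6, which did not pass, with capitals marking the match (GGAAA, 2 bases and CCC where it lies on the other strand). They lie at chr12:55492648-55492696 (Nfkbia, minus strand), chr10:19015411-19015442 (Tnfaip3, minus) and chr5:30013050-30013099 (Il6, plus).
Nfkbia: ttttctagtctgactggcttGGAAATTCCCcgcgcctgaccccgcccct
Tnfaip3: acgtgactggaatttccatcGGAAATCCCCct
Il6: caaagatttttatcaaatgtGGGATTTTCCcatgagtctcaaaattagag
The core was thus found before the start of genes that rose and of a gene that did not pass, and was not found for other genes that rose.

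Of 30 other transcription factor genes, 8 rose and 3 fell (median 0.09). These are 26.7% and 10%, against 13.5% and 8.16% of all genes. With thinning 5 rose, and with library size alone 7 fell. Irf7, the amplifier of interferon genes, rose from 83.1, 200 and 115 CPM to 1460, 1560 and 1360 CPM (3.45 ± 0.25, adjusted p = 2.49e-29 by edgeR), and Irf1 from 139, 87.3 and 96 CPM to 614, 590 and 663 CPM (2.55 ± 0.26, 4.99e-17). Klf6 rose by 1.59 ± 0.28 (6.17e-07) and Irf5 by 0.75 ± 0.19 (0.00106). Rxra, the nuclear receptor partner, had 12 counts in Ctrl and 0 with cGAMP. Of the AP-1 genes, Jund fell narrowly (-1.04, adjusted p = 0.0445 by edgeR) and missed the threshold in 6 of 13 alternatives. Fos, Jun, Junb and Fosl2 and the stress factor Atf3 did not pass. Atf3 was at 582, 536 and 759 CPM in Ctrl and 642, 631 and 601 CPM with cGAMP.

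Of 14 tested costimulation and maturation genes, 11 rose (median 2.50, or 2.43 with the absent Icosl at its bound). Cd86 rose from 27.7, 49.9 and 28.8 CPM to 431, 397 and 381 CPM (3.49 ± 0.42, adjusted p = 3.05e-13 by edgeR) and Cd40 from 69.3, 112 and 115 CPM to 550, 555 and 479 CPM (2.37 ± 0.29, 8.09e-13). Cd274, which encodes the T cell inhibitor PD-L1, rose from 152, 362 and 298 CPM to 1850, 1680 and 1470 CPM (2.59 ± 0.18, 4.26e-32). Il15ra, the chain that presents interleukin 15, rose from 41.6, 74.8 and 28.8 CPM to 743, 602 and 687 CPM (3.82 ± 0.33, 1.57e-22), beside its ligand Il15. Cd69, the retention marker of activated leukocytes, rose from 27.7, 74.8 and 38.4 CPM to 477, 771 and 743 CPM (3.84 ± 0.35, 1.12e-20). Cd83 was at 64.4 ± 19.8 and 87.0 ± 22.1 CPM and did not pass (0.548).

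For MHC class I, 12 of 19 genes rose (median 1.12). The peptide transporter gene Tap1 rose from 55.4, 37.4 and 76.8 CPM to 504, 549 and 442 CPM (3.08 ± 0.28, adjusted p = 2.77e-20 by edgeR), and Nlrc5, the transactivator of class I genes, from 55.4, 99.8 and 57.6 CPM to 541, 421 and 528 CPM (2.80 ± 0.34, 7.12e-13). The class I molecules themselves rose as well, H2-K1 from 1760, 1610 and 1690 CPM to 3270, 3000 and 2800 CPM (0.84 ± 0.12, 4.65e-09) and B2m from 5190, 5000 and 5010 CPM to 9070, 8730 and 8790 CPM (0.81 ± 0.11, 1.43e-10). None of the 10 class II genes passed by edgeR or by DESeq2, with 4 at an unadjusted p under 0.05 by edgeR (median 0.15). Up to 2 of them rose in other settings: 2 without the filter on low counts, 2 in a fit of the 6 libraries alone, and 1 without cGAMP replicate 2, Ctrl replicate 1 or Ctrl replicate 2, while 1 fell with RLE factors and with library size alone. H2-Ab1 was at 1720, 1520 and 1330 CPM against 1500, 1480 and 1630 CPM, with overlapping libraries (0.02 ± 0.11, 0.912).

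Genes of cell death and of nucleotide metabolism rose in part. Of 23 cell death genes 10 rose (43.5%, against 13.5% of all genes), with a median of 0.69. Among them was Casp4, the receptor of cytosolic lipopolysaccharide, from 83.1, 12.5 and 28.8 CPM to 293, 269 and 184 CPM (2.63 ± 0.40, adjusted p = 1.32e-08 by edgeR). Casp1 rose from 69.3, 74.8 and 48 CPM to 202, 251 and 325 CPM (2.07 ± 0.36, 4.66e-07). Daxx rose by 3.13 ± 0.42 (8.21e-11) and Xaf1 by 2.61 ± 0.35 (5.16e-11), and the caspase inhibitor Cflar by 1.37 ± 0.23 (4.18e-07). Mlkl, the executor of necroptosis, rose by 2.19 ± 0.48 (0.000136), but not after thinning (0.48, 0.765).

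Of 18 genes of purine, pyrimidine and amino acid metabolism, 11 rose (median 2.23), with Samhd1 and Cmpk2 among them. Irg1 (now Acod1), which makes itaconate, rose from 402, 474 and 365 CPM to 4250, 3380 and 3220 CPM (3.13 ± 0.15, adjusted p = 1.17e-51 by edgeR). Nt5c3, a pyrimidine nucleotidase, rose from 27.7, 37.4 and 9.6 CPM to 596, 567 and 503 CPM (4.52 ± 0.36, 8.43e-25), and Pnp, the purine phosphorylase, from 194, 274 and 307 CPM to 2150, 2050 and 2040 CPM (2.97 ± 0.18, 6.32e-39). Nampt, of NAD synthesis, rose by 2.21 ± 0.18 (3.18e-25) and Ass1, of arginine synthesis, by 1.87 ± 0.27 (2.23e-09).

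Cd300lb, an activating receptor of myeloid cells, fell from 332, 237 and 298 CPM to 9.17, 11.7 and 6.14 CPM (-4.89 ± 0.55, adjusted p = 2.01e-14 by edgeR). With 4 counts in the cGAMP group, it had the largest fall among genes that met the conditions for naming, at least 4 counts in each group among them. Tgfbr1, a chain of the TGF-beta receptor, fell from 152, 187 and 144 CPM to 0, 17.5 and 18.4 CPM (-3.50 ± 0.52, 5.61e-09). Arhgap25, a GTPase activator for Rac that restrains phagocytosis, fell from 540, 461 and 557 CPM to 73.4, 81.8 and 49.1 CPM (-2.93 ± 0.30, 1.99e-17). The groups do not overlap for any of these genes, as the naming rule required. Scd2, a desaturase that makes monounsaturated fatty acids, fell from 166, 150 and 144 CPM to 18.3, 23.4 and 12.3 CPM (-3.03 ± 0.56, 4.07e-06, but 0.0502 after thinning). The kinase genes Stk10 and Rps6ka1 fell by 3.13 and 3.09 on the log2 scale, the heparan sulfate enzyme gene Hs6st1 by 3.64, and Deb1, Lhfpl2, Ubald1 and Fam105a by 3.24, 3.19, 3.09 and 3.02. Each of these 7 had 4 to 6 counts with cGAMP, and Ubald1 did not pass after thinning (0.0751).

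Some receptors of myeloid cells fell and others rose. Of 33 phagocytic, lectin and scavenger receptor genes 10 fell (30.3%, against 8.16% of all genes) and 4 rose (median -0.45). Clec4a2, an inhibitory lectin, fell from 416, 200 and 240 CPM to 119, 117 and 110 CPM (-1.27 ± 0.30, adjusted p = 0.000329 by edgeR), and Clec4n, which encodes Dectin-2, from 956, 910 and 951 CPM to 477, 508 and 497 CPM (-0.92 ± 0.17, 3.25e-06). Itgax, the gene of CD11c, fell from 416, 387 and 461 CPM to 220, 181 and 252 CPM (-0.96 ± 0.25, 0.00133, but 0.198 after thinning). The count of falls was sensitive: it was 6 without cGAMP replicate 2, 4 without Ctrl replicate 1, 3 without the filter on low counts and 5 after thinning. The high-affinity and the activating Fc receptor genes went the other way, Fcgr1 from 55.4, 49.9 and 76.8 CPM to 513, 520 and 503 CPM (3.03 ± 0.38, 3.38e-12) and Fcgr4 from 139, 112 and 125 CPM to 385, 368 and 430 CPM (1.66 ± 0.31, 4.08e-06). Clec4e, which encodes Mincle, rose from 346, 461 and 346 CPM to 1210, 1020 and 976 CPM (1.47 ± 0.16, 3.59e-15).

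Of 32 growth factor and surface receptor genes of the myeloid lineage 5 rose and 7 fell (median -0.06), with 4 falls without Ctrl replicate 3, 4 after thinning, 4 in a fit of the 6 libraries alone, 2 without the filter on low counts and 11 with library size alone. The 5 rises are 15.6% and the 7 falls 21.9%, against 13.5% and 8.16% of all genes. Csf1r, the receptor for M-CSF, fell from 1620, 1760 and 1780 CPM to 990, 1120 and 1190 CPM (-0.64 ± 0.14, adjusted p = 0.000194 by edgeR), but did not pass without the filter (0.063). Mmp12, a macrophage elastase, fell from 7580, 8090 and 8580 CPM to 4680, 4300 and 4790 CPM (-0.82 ± 0.13, 1.19e-07). Tlr2, the lipoprotein receptor, rose from 13.9, 99.8 and 96 CPM to 348, 257 and 221 CPM (1.85 ± 0.32, 7.45e-07). The tetraspan genes Ms4a4c, Ms4a6c and Ms4a6d rose by 3.57 ± 0.67, 2.89 ± 0.38 and 2.18 ± 0.25. Fcgr1 is among the macrophage markers whose sum is given above. Whether a change in the makeup of the cultures takes part in these differences was not tested.

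Ribosomal protein genes fell by small amounts, 27 of 71 (38%, against 8.16% of all genes; median -0.39), and the other 44 did not pass. The count moved with the processing: 53 fell with library size alone, 14 after thinning and 5 without the filter on low counts, and the median ran from -0.63 to -0.18. Rpl10a fell from 776, 836 and 710 CPM to 440, 374 and 473 CPM (-0.85 ± 0.18, adjusted p = 4.57e-05 by edgeR). Glycolysis and hypoxia genes moved both ways, 5 of 23 up and 5 down (median -0.46). Each share is 21.7%, against 13.5% up and 8.16% down over all genes. The hexokinase gene Hk3 rose from 125, 187 and 240 CPM to 734, 567 and 632 CPM (1.74 ± 0.24, 2.96e-10), whereas Gpi1, of the next step, fell from 194, 349 and 278 CPM to 91.7, 117 and 117 CPM (-1.32 ± 0.32, 0.000577) and Vegfa, the vascular growth factor, from 111, 262 and 154 CPM to 36.7, 52.6 and 18.4 CPM (-2.26 ± 0.46, 2.76e-05). The falls in this list were 3 without Ctrl replicate 1 and 3 without the filter. Of the sterol genes, Ch25h, which makes the antiviral oxysterol 25-hydroxycholesterol, had 2 counts against 57, a ratio of 16.5 (4.36 to 140), and the cholesterol exporter gene Abca1 fell from 332, 187 and 240 CPM to 110, 58.4 and 98.2 CPM (-1.53 ± 0.30, 1.14e-05, but 0.139 after thinning).

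The same addition of cGAMP was also made on top of HMW, in 6 libraries that share none with the comparison above. HMW + cGAMP against HMW called 573 genes higher (12.1% of those tested) and 295 lower (6.25%), 868 in all (18.4%). Both comparisons called 556 genes in the same direction and 0 in opposite directions, which is 67% of the first list and 64.1% of the second. Of the 551 genes called higher with cGAMP alone 412 were called higher here, and of the 279 called lower 144 were called lower. The sign matched for 810 of 830 (97.6%). Ifnb1 was at 8.32, 0 and 13.9 CPM with HMW and 150, 207 and 158 CPM with HMW + cGAMP (4.47, adjusted p = 2.2e-13 by edgeR), and Ccl4 changed by 3.55 (2.54e-48), Tnf by 1.88 (1.54e-20) and Cd86 by 2.97 (1.48e-17). Genes that passed against Ctrl and not here include Mb21d1 (0.58, 0.337), Tbk1 (0.31, 0.413), Jak1 (-0.33, 0.426) and Rxra (-1.44, 0.14). Tgfbr1 and Ifngr1 fell here by 2.47 and 1.85 on the log2 scale, both without passing after thinning (adjusted p of 0.0835 and 0.369). Il6 and Il1a passed in these libraries, with log2 fold changes of 0.78 (0.018) and 0.99 (0.000123). Neither passed after thinning (0.231 for Il6 and 0.162 for Il1a), and Il6 also missed the threshold with library size alone (0.0933) and without HMW + cGAMP replicate 2 (0.0542), HMW replicate 1 (0.0681) or HMW replicate 3 (0.143).

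**Figure D3:**
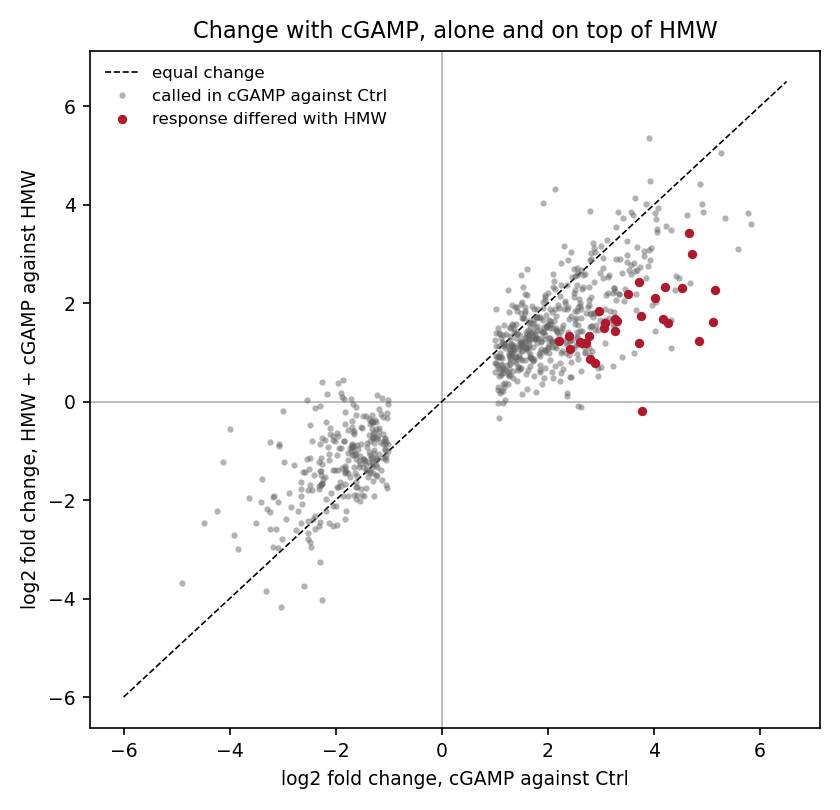
Log2 fold change in cGAMP against Ctrl (x axis) and in HMW + cGAMP against HMW (y axis) for 799 of the 830 called genes, those with a count in each of the 4 groups; red marks 30 genes whose 2 changes differed at an adjusted p under 0.05 (31 of all genes tested, 0.657%). Nearly all points share their sign, and the red points lie below the line of equal change.

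To place cGAMP beside another inducer of interferon, its libraries were compared with those of SeV and of LPS. These comparisons share the cGAMP libraries with the one against Ctrl. Against SeV, 48 genes were called (1.02% of those tested), 42 higher with cGAMP (0.89%) and 6 lower (0.127%). Ifnb1 was at 248, 261 and 244 CPM with SeV, within the range of the cGAMP libraries (cGAMP minus SeV -0.40, adjusted p = 0.652 by edgeR). Without the fold threshold 1.33% of all genes were higher and 0.275% lower, together 1.61%. Of 46 antiviral genes 2 were higher. These were Oasl1, at 975 ± 96.2 CPM with SeV and 2760 ± 261 CPM with cGAMP (1.49, 2.85e-10), and Ifit1 (0.54, 0.00935), which did not pass without cGAMP replicate 3 (0.0897), SeV replicate 2 (0.0655) or SeV replicate 3 (0.118) and after thinning (0.138).

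The chemokine list gave 5 of 18 higher with cGAMP than with SeV. Ccl4 was at 3130 ± 224 CPM with SeV and 9180 ± 224 CPM with cGAMP (1.56, adjusted p = 1.41e-15 by edgeR), Ccl5 at 5330 ± 558 and 13100 ± 977 CPM (1.30, 3.34e-13) and Ccl3 at 1100 ± 90.7 and 2480 ± 299 CPM (1.18, 7.71e-09). Tnf (0.98, 6.85e-06), Tnfsf15 (1.77, 7.21e-08), Cd86 (1.48, 1.37e-05) and Irg1 (0.65, 6.85e-06) were higher as well. These 7 differences passed under every alternative tried. Cxcl10 (0.65, 0.0117) and Ccl7 (1.89, 0.0168) did not: Cxcl10 missed the threshold without cGAMP replicate 3 (0.0624), SeV replicate 2 (0.0555) or SeV replicate 3 (0.0941) and with DESeq2 (0.0935), and Ccl7 without cGAMP replicate 2 (0.117), cGAMP replicate 3 (0.0558), SeV replicate 2 (0.0974) or SeV replicate 3 (0.114) and after thinning (0.516).

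The 5 genes furthest above SeV were Tmem37 (3.13, adjusted p = 3.27e-06 by edgeR), Rgcc (3.06, 1.76e-12), Hopx (2.77, 1.32e-13), Meis3 (2.77, 1.04e-05) and Cdyl2 (2.59, 0.000211). Rgcc, a regulator of the cell cycle kinase CDK1, was at 23.9 ± 4.34 CPM in Ctrl, 284, 462 and 424 CPM with cGAMP and 371 ± 23.3 CPM with HMW + cGAMP, and at most 70.4 ± 6.20 CPM, with Zymosan, in the 6 other single-ligand groups. Hopx, a homeodomain protein that does not bind DNA, was at 52.9 ± 13.1 CPM in Ctrl, 871, 503 and 632 CPM with cGAMP and 662 ± 87.1 CPM with HMW + cGAMP, and at most 152 ± 3.15 CPM, with LPS, in the other 6. For both genes every cGAMP library was above every library of the other single-ligand groups. Tmem37, a calcium channel subunit, was at 27.2 ± 1.99 CPM in Ctrl, 165 ± 52.8 CPM with cGAMP and 88.2 ± 28.5 CPM with HMW + cGAMP. After thinning Tmem37, Meis3 and Cdyl2 did not pass against SeV (0.077, 0.559 and 0.0736).

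Of the 6 genes called lower than with SeV, 5 did not pass under several alternatives, though their differences kept their sign. Cd300lb (-2.71, adjusted p = 0.0117 by edgeR), Il18 (-1.77, 0.047), Ccr2 (-1.50, 0.0367), Fbrsl1 (-1.39, 0.0364) and Rpl36 (-1.13, 0.0319) were the 5 furthest below. None of the 5 passed without cGAMP replicate 3, where their adjusted p were 0.101, 0.111, 0.101, 0.133 and 0.321, or in the thinned libraries (0.465, 0.557, 0.749, 0.71 and 0.824). Over all alternatives the log2 differences ran from -2.98 to -2.48 for Cd300lb, -2.20 to -1.50 for Il18, -1.61 to -1.27 for Ccr2, -1.58 to -1.19 for Fbrsl1 and -1.52 to -0.78 for Rpl36. The remaining gene, Mmp13, a collagenase that the naming rule did not select and that was chosen after its values were seen, was at 640, 498 and 647 CPM with SeV and 293, 333 and 203 CPM with cGAMP (-1.12, 0.000211), and passed under every alternative tried.

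Against LPS, 415 genes were called (8.79%), 173 higher with cGAMP (3.67%) and 242 lower (5.13%). Without the fold threshold 5.76% were higher and 6.95% lower. Ifnb1 was at 0, 22.2 and 17.9 CPM with LPS, near Ctrl, and 3.61 higher on the log2 scale with cGAMP (adjusted p = 4.82e-11 by edgeR). Of 19 inflammatory cytokine genes 1 was higher and 9 lower (median -1.68). Il1b was at 3510 ± 107 CPM with LPS and 355 ± 81.4 CPM with cGAMP (-3.34, 4.63e-54), Il6 at 1270 ± 156 and 177 ± 38.9 CPM (-2.81, 4.2e-30), while Tnf, at 4440 ± 66.6 and 3540 ± 229 CPM, did not pass (-0.33, 0.174, with a 95% interval from -0.64 to -0.02). Of 18 chemokines 6 were higher with cGAMP and 9 lower. Ccl4 was higher (1.13, 2.73e-10) and Cxcl9 as well (1.63, 5.01e-09), while Ccl5 (-1.05, 1.85e-10), Ccl22 (-2.54, 2.23e-27) and Cxcl3 (-3.44, 2.08e-20) were lower. Of 46 antiviral genes 7 were higher and 4 lower (median 0.00), with Oasl1 at 1.15 (8.02e-08) and Slfn4 at -1.53 (5.84e-06).

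The 5 genes furthest above LPS were Tmem37 (4.32), Rgcc (4.23), Ifnb1 (3.61), Lpxn (3.29) and Pdxk (3.28), with adjusted p of 2.9e-06 or smaller by edgeR. The 5 furthest below were Cav1 (-4.00), Ccl17 (-3.84), U90926 (-3.83), Saa3 (-3.76) and Sla (-3.51), with adjusted p of 1.33e-08 or smaller. Cav1, which encodes the coat protein of caveolae, was at 685, 903 and 622 CPM with LPS and 73.4, 17.5 and 55.2 CPM with cGAMP. Saa3, an acute-phase protein gene, was at 5100, 4070 and 3750 CPM against 348, 245 and 368 CPM. No library of one group reached the range of the other for any of these 10 genes.

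**Figure D4:**
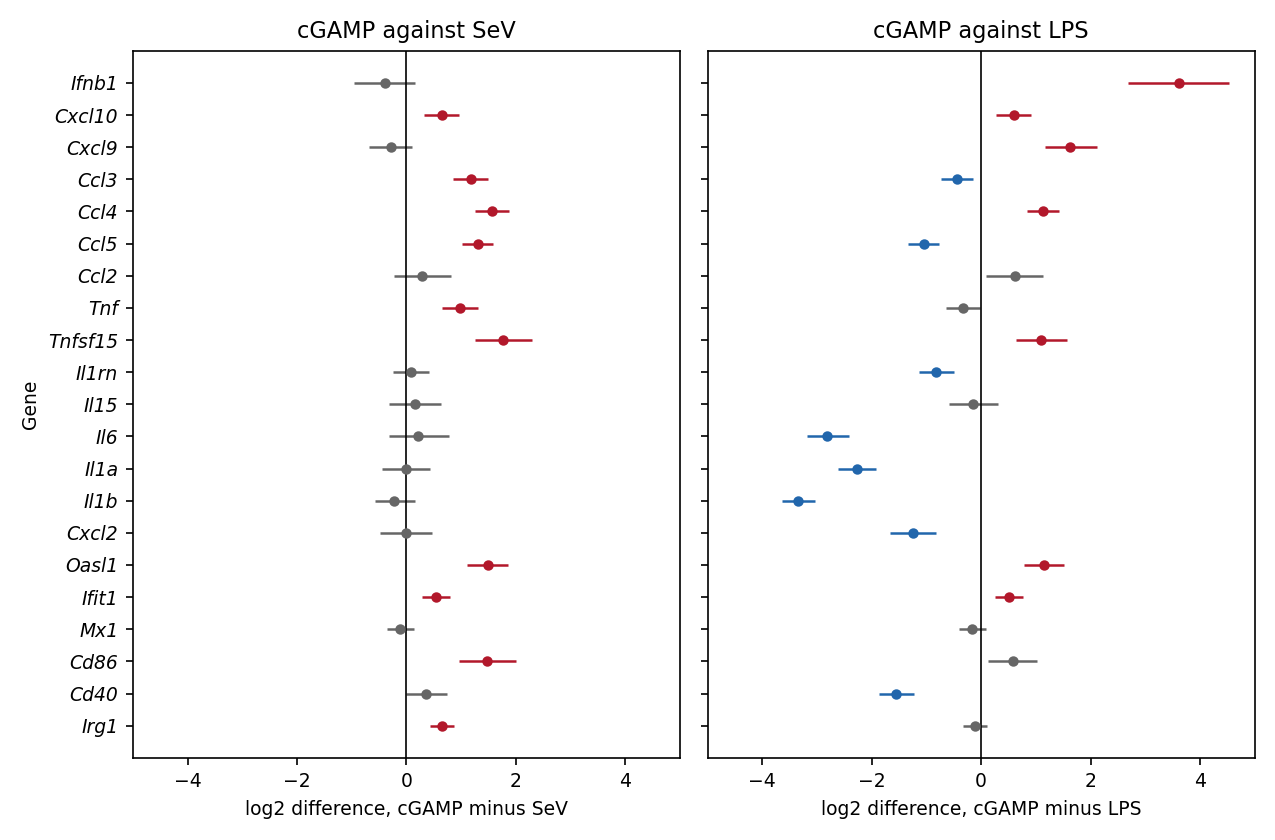
Log2 difference between cGAMP and SeV (left) and between cGAMP and LPS (right) for 21 genes, with 95% confidence intervals; red is higher and blue lower with cGAMP at an adjusted p under 0.05, grey did not pass. Ccl4 lies above both ligands, and Il6, Il1a and Il1b lie near 0 against SeV and at -2.81, -2.27 and -3.34 against LPS.

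Across the single-ligand groups, Ccl4 was highest with cGAMP (9130, 8980 and 9420 CPM), followed by CpGB (6450 ± 1030 CPM), LPS (4200 ± 101 CPM) and SeV (3130 ± 224 CPM), and the cGAMP libraries lay more than 1 SD above each of those means. Tnfsf15 had the same leader, at 843 ± 88.7 CPM with cGAMP against 396 ± 35 with LPS, 339 ± 47.2 with PAM and 293 ± 121 with CpGB, and the ranges of the last 3 groups overlap. Cd86 was at 403 ± 25.7 CPM with cGAMP, 274 ± 53.3 with LPS and 143 ± 11.5 with SeV. Ifnb1 was at 251 ± 8.63 CPM with SeV and 196 ± 78.8 CPM with cGAMP, values that overlap, and at most 22.5 ± 14.7 CPM with the other 5 ligands. These genes were picked because they stood out against SeV or LPS, so their levels are a description with no test.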

How the data were processed

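The deposited table holds counts of unique molecular identifiers per gene symbol for 64 groups of 3 libraries. Reads were aligned with BWA 0.7.15 to mm10, per the submitters' processing notes. The annotation, strand setting and the counting of shared reads are not given in the sources used here. Members and gene lists were chosen with earlier results of these data known.

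Counts were fitted with edgeR 4.0.16 in R 4.3.3 (TMM scaling, filterByExpr, 1 coefficient per group, quasi-likelihood test, 128 residual degrees of freedom). All libraries of the series entered the fit, so that the groups share an estimate of the spread. This left 4720 of 23481 genes, holding 95.7% of the counts. P-values were Benjamini-Hochberg adjusted over all genes tested. A call needs an adjusted p under 0.05 and a change of 2-fold. SE is the log2 fold change divided by the root of F. A fold against a group at 0 uses a floor of 3 counts over the group, and count ratios carry exact 95% intervals that cover counting error only.

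Genes named are the 12 largest rises and 12 largest falls among calls with a mean of 50 CPM or more in either group, at least 4 counts in each group and no overlap between libraries. To these come all members of the STING and interferon lists, up to 6 members of each other list with the largest change that passed plus members described by role, and the 5 highest and 5 lowest against SeV and against LPS. Alternatives were RLE factors, library size alone, DESeq2 1.42.0, no filter on low counts, thinning every library to 46564 counts, the libraries of a comparison alone, the replicate number as a block, and leaving out each library. The contrast of the cGAMP effect with and without HMW was added after the data were seen. In simulated counts for the comparison with Ctrl (4720 genes), an adjusted p under 0.05, whatever the fold, was reached by 18% of 2-fold rises, 86% of 4-fold rises, 26% of falls to 0.5-fold and 50% of falls to 0.25-fold. The simulation changed 50 genes for each fold, left 4520 unchanged and gave every gene the same spread. In the data 21.7% of genes passed, and the adjustment depends on that share, so these rates do not carry over to this comparison. Results for some genes are not reported here.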

Additional observations from a re-analysis of the deposited data

Results flagged for a closer look

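The effect of cGAMP differed between cells with and without HMW for 31 genes, tested as the difference of the 2 log2 fold changes in a contrast added after the data were seen (edgeR's quasi-likelihood test, adjusted p under 0.05, 0.657% of genes tested). All 31 differences were negative. The log2 fold change was above 0 in both settings and smaller with HMW except for Mtpn (0.59 without HMW and -0.41 with it) and Zfp131 (3.77 and -0.19), whose sign differed. All 31 genes had a higher mean level in HMW than in Ctrl, with a median ratio of 3.41, and the median ratio of HMW + cGAMP to cGAMP was 1.01. The levels of these 4 groups make up the tested difference, so the ratios describe it and are no separate result. The cause was not tested.

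Signalling and sensor genes among them were Stat2 (-1.92, adjusted p = 8.07e-05), Ddx58 (-1.67, 0.00783), Ifi203 (-2.67, 1.15e-07), Ifi204 (-1.44, 2.63e-05) and Pyhin1 (-1.90, 6.8e-05). Antiviral genes were Rtp4 (-2.52, 2.64e-08), Oasl2 (-2.03, 2.24e-05), Trim30a (-1.56, 2.8e-05), Parp14 (-1.59, 3.9e-05), Mx1 (-1.28, 3.9e-05), Sp110 (-1.83, 0.000618), Znfx1 (-1.39, 0.00144), Ifit3 (-1.73, 0.00352), Slfn5 (-1.05, 0.00352), Ifit1 (-1.23, 0.00554), Samd9l (-1.53, 0.044) and Trex1 (-1.46, 0.0435). GTPase genes were Irgm1 (-1.88, 0.00128), Igtp (-2.88, 0.00139) and Ifi47 (-1.32, 0.00352). The others were Pnp (-1.14, 0.000688), Nampt (-0.97, 0.00804), Nt5c3 (-2.22, 0.00804), Lgals9 (-1.36, 0.00714), Tap1 (-1.49, 0.0191) and Mtpn (-1, 0.0304). For 4 genes the Ctrl group held 1 to 3 counts: Oas2 (-3.63, 0.00131, 2 counts), Zfp131 (-3.96, 0.0185, 1 count), Papd7 (-3.50, 0.0304, 1 count) and Tpst1 (-2.50, 0.0396, 3 counts). Of the 29 differences that also reached 2-fold, 11 still did so at an adjusted p under 0.05 after thinning, and those of Trim30a (0.0783), Mx1 (0.0783) and Pyhin1 (0.208) are among the ones that did not.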

How the results depend on the processing

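Of 327 gene results past the threshold, 226 passed in every alternative, 339 of 4311 gene-by-alternative values did not pass, and none changed sign. Of 58 not past it, 13 passed in at least 1 alternative. In the comparison with Ctrl (551 higher, 279 lower), lower calls were 484 with library size alone, 177 without the filter and 138 after thinning. With HMW present (573 and 295), they were 521 with library size alone, which took the share of higher calls from 66% to 45.4%, and thinning gave 305 higher and 87 lower. Against SeV (42 and 6), lower calls were 1 with DESeq2 and 3 without the filter, and thinning gave 12 higher and 3 lower. Leaving out single libraries gave 27 to 40 higher, with 27 without SeV replicate 3, and 0 to 7 lower, with 0 without cGAMP replicate 3. Against LPS (173 and 242), thinning gave 61 higher and 117 lower. For the difference with HMW (0 and 29 at 2-fold), thinning gave 1 higher and 12 lower, and leaving out single libraries gave 0 to 2 higher and 16 to 45 lower, with 16 without HMW replicate 2 and 45 without HMW replicate 3. The share of promoters of higher genes with the stricter motif was 1.73%. The cause of these moves was not tested, except that thinning leaves fewer counts. Deviations of same-numbered libraries correlated from -0.0337 to 0.0371 between Ctrl and cGAMP and from 0.066 to 0.0907 between LPS and cGAMP (differently numbered -0.0535 to -0.025), all under 0.1, so the numbers were not taken to pair them. The replicate block gave 553 and 282 against Ctrl, 573 and 298 with HMW, 43 and 6 against SeV and 172 and 242 against LPS. Depth limits genes of low level and changes near 2-fold.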

Other observations

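Of 27 genes called with 0 counts in one group, 24 were absent from Ctrl and 3 from cGAMP, and the following were picked after their values were seen. Enpp4, a membrane enzyme that cleaves diadenosine nucleotides, had 39 counts with cGAMP and was at least 7.53-fold higher. The homeobox genes Lhx2 and Pou3f1 had 31 and 27 counts with cGAMP and were at least 5.98-fold and 5.21-fold higher. Plk3, a stress kinase, and Slc39a14, a zinc and iron importer, had no counts with cGAMP and were at least 3.45-fold and 2.88-fold lower.

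Of 38 autophagy and lysosome genes 6 rose and 7 fell (median -0.08), of 31 actin and adhesion genes 7 rose and 5 fell (median 0.07), and of 13 cell cycle genes 4 rose and 1 fell (median 0.01). In that order, rises were 15.8%, 22.6% and 30.8% (13.5% of all genes) and falls 18.4%, 16.1% and 7.69% (8.16% of all genes). The cell cycle fall did not pass without the filter on low counts, after thinning, or without cGAMP replicate 2, Ctrl replicate 1 or Ctrl replicate 2. The falls in the autophagy list were 13 with library size alone, 4 after thinning and 2 without the filter on low counts, and its rises 3 with DESeq2, after thinning or without cGAMP replicate 2. In the actin list library size alone gave 4 rises and 8 falls, thinning 4 and 3, and the falls were 0 without the filter, 3 without cGAMP replicate 1 or Ctrl replicate 1 and 2 without cGAMP replicate 2 or Ctrl replicate 2. Of 60 oxidative phosphorylation genes 1 rose and 2 fell (median -0.29), with 10 falls with library size alone and 0 without cGAMP replicate 3, Ctrl replicate 1 or Ctrl replicate 3. Of 19 genes of chaperones and the unfolded protein response 2 rose and 2 fell (median -0.14), counts that leaving out single libraries also changed. In these last 2 lists rises were 1.67% and 10.5% and falls 3.33% and 10.5%, against 13.5% and 8.16% of all genes.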
